A study of Mus musculus with 12 samples.

Results

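The genes described here are 35 that act at the T cell receptor or immediately below it. They comprise the CD3 and zeta chains of the receptor (Cd3d, Cd3e, Cd3g and Cd247), the coreceptors (Cd4, Cd8a and Cd8b1), other surface proteins (Cd2, Cd5, Cd6 and Thy1) and the first kinases (Lck, Fyn, Zap70 and Csk). Adaptors (Lat, Lcp2, Grap2 and Themis), enzymes and exchange factors (Plcg1, Vav1, Prkcq, Rasgrp1 and Sos1) and the arms that lead to NF-kB and NFAT (Malt1, Bcl10, Nfatc1 and Nfatc2) follow. The remainder, most of which restrain the signal, are the phosphatases Ptprc, Ptpn22 and Ptpn6, the ubiquitin ligases Cblb and Cbl, and the diacylglycerol kinases Dgka and Dgkz. The genes were chosen by symbol for these roles, without a rule on measured values but with earlier results of these data known. All 35 were among the 53762 symbols of the count table, and all 35 passed the filter on low counts, which left 16945 genes for testing.

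RNA was sequenced from spleen T cells of mice after culture together with cells that the labels call Res, and the stated aim was to find genes that differ by the partner. The partner cells carried shFabp7, a short hairpin RNA against the fatty acid binding protein gene Fabp7, or a control. The groups were the shFabp7 partner at 48 h, the control partner at 48 h, the shFabp7 partner at 24 h and the control partner at 24 h, with 3 libraries each and 12 in all. All 4 groups were T cells in co-culture, and T cells kept alone were not among them. The identity of the Res cells, the mouse strain and age, the stimulus given to the T cells, their separation from the partner cells and whether the hairpin was carried by 1 clone or a pool are not stated in the labels. Nothing in the labels says that replicate libraries came from separate cultures or mice, and p-values therefore reflect the spread among libraries, which may be technical alone.

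The T cell receptor has no enzyme of its own. When it meets its ligand, the kinase Lck, brought in by the coreceptor CD4 or CD8, phosphorylates tyrosines in the CD3 and zeta chains. The kinase ZAP-70 binds there and phosphorylates the adaptors LAT and SLP-76 (Lcp2), which gather phospholipase C gamma 1 (Plcg1), Vav1 and other proteins into a complex. From this complex calcium leads to NFAT, diacylglycerol leads to Ras through RasGRP1 and to NF-kB through protein kinase C theta (Prkcq), and phosphatases such as PTPN22 and SHP-1, CBL ligases and diacylglycerol kinases hold the signal down.

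Each library held 31952900 to 40638700 counts, and all replicate pairs differed by more than counting noise (chi-square per degree of freedom of 4.34 to 14.2). The first dimension of a multidimensional scaling plot, with 70.0% of the variance, followed the hours in culture, and the second, with 4.73%, followed the partner. Fabp7 itself had 0, 0 and 0 counts in the shFabp7 libraries at 48 h, against 3, 1 and 1 counts in the control libraries at 48 h, and 0 counts in all 6 libraries at 24 h, which does not check a knockdown made in other cells. The T cell label held, because the 12 T cell markers summed to 2867 to 2968 CPM in the shFabp7 libraries and 2828 to 2841 CPM in the control libraries at 48 h, and to 3952 to 4105 CPM in the shFabp7 libraries and 3932 to 4071 CPM in the control libraries at 24 h. CPM are counts relative to library size after TMM scaling. Of those 12 markers 7 are among the 35 genes. Markers of other cells were low: 10 B cell markers summed to 15.4 to 28.6 CPM over all libraries, 10 monocyte and macrophage markers to 11.4 to 17.3 CPM, 8 neutrophil markers to 3.04 to 10.7 CPM and 6 epithelial markers to 4.53 to 12.4 CPM. The 5 platelet markers summed to at most 19.02 CPM, the 6 fibroblast and stromal markers to at most 5.86 CPM and the 6 red cell markers to at most 1.23 CPM. The 8 NK cell markers, several of which killer T cells also express, summed to 144.7 to 172.6 CPM. Most of that sum was Eomes, at 135.8 to 162.5 CPM. Replicate 1 of the control partner at 48 h stood apart from the other 2 libraries of its group in several of the 35 genes, and results that it decides are given with and without it.

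The proximal promoters of 5 genes are shown because they mark the patterns described below. Cd3g, Cd3d and Cd3e lie in 1 cluster on chromosome 9 but did not move alike, Prkcq had the largest decrease with time among the 35 genes, and Themis the largest increase. Each line gives the 250 bases before the RefSeq start in build GRCm38.p6, 5′ to 3′ on the gene's strand, at chr9:44980432-44980681 (minus strand), chr9:44981536-44981785 (plus), chr9:45009612-45009861 (minus), chr2:11172132-11172381 (plus) and chr10:28668110-28668359 (plus, 1 of 2 listed starts). Capitals mark every match, on either strand, to an ETS core (GGAAGT), an E-box (CANNTG), an NFAT core (GGAAAA) or a RUNX core (TGTGGT).
Cd3g: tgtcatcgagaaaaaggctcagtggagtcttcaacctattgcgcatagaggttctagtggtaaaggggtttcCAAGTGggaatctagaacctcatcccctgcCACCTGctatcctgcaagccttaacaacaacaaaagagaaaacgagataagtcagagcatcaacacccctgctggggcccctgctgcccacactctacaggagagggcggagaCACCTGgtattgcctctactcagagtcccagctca
Cd3d: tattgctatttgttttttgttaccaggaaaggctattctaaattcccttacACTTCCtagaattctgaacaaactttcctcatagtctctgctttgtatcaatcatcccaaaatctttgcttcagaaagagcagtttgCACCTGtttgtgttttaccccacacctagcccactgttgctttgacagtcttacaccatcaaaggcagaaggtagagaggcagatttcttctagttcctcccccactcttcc
Cd3e: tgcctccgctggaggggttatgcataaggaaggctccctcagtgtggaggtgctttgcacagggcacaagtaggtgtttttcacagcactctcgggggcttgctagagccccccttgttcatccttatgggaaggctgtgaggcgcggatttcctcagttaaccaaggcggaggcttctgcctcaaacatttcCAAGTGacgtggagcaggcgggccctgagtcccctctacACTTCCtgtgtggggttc
Prkcq: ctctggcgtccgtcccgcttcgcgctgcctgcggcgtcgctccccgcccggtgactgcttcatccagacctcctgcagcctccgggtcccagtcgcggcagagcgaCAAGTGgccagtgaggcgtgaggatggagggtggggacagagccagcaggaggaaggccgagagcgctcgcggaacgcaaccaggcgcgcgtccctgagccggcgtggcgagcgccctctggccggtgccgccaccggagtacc
Themis: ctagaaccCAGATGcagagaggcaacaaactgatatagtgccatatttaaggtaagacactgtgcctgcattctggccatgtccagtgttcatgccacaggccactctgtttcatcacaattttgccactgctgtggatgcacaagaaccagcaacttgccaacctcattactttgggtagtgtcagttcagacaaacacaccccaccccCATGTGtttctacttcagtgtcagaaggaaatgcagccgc
The Cd3g and Cd3d starts are 1355 bases apart and point away from each other, and the Cd3e start is 27825 bases from that of Cd3d. In these windows Cd3d and Cd3e each had 1 ETS core and 1 E-box, Cd3g had 3 E-boxes, Prkcq had 1 and Themis had 2, and no NFAT or RUNX core was in them. GC content was 51.6% for Cd3g, 41.2% for Cd3d, 57.2% for Cd3e, 72.4% for Prkcq and 48.0% for Themis, against a median of 52.4% over all RefSeq promoters of that length. Promoter windows were searched for 28 of the 35 genes, 40 windows in all. None was searched for Cd2, Cd4, Cd6, Cd8b1, Thy1, Malt1 and Nfatc1, which does not show that RefSeq lists none for them. An ETS core was in 15 of the 40 windows (37.5%) and in 19.7% of all 32807 promoters, and an E-box in 30 windows (75.0%) and 66.2% of all. An NFAT core was in 7 windows (17.5%) and 20.4% of all, and a RUNX core in 4 (10.0%) and 14.0%. Some windows are overlapping alternative starts of 1 gene, so a match can be counted more than once. By gene an ETS core was found for 12 of the 28, an E-box for 25, an NFAT core for 7 and a RUNX core for 4. The matching shares of all genes were not computed. These matches describe letters and show no binding.

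At 48 h, T cells with the shFabp7 partner had lower transcript levels of most CD3 chains, of CD8, of both diacylglycerol kinases and of Ptpn22, and higher levels of Thy1, Lcp2 and Cd5 than T cells with the control partner. Of the 35 genes 7 were higher (20%), where 19.9% of all 16945 genes were, and 12 were lower (34.3%), where 11.6% of all genes were. All of these differences were small, between -0.26 and 0.32 on the log2 scale, and none of the 35 passed a test against a minimum fold of 1.2 (edgeR's glmTreat, adjusted p under 0.05 in 0 genes and unadjusted p under 0.05 in 1, Thy1), which 1005 of all genes passed. The median log2 fold change was 0.0096 over the 35 genes and 0.014 over all genes, and the median size 0.15 against 0.21. The groups did not overlap in 20 of the 35 genes (57.1%), against 44.0% of all genes. Neutrophil markers moved with the partner at 48 h: the 8 summed to 3.04 to 4.02 CPM in shFabp7 libraries and 4.91 to 9.51 CPM in control libraries, and 3 of the 5 tested (S100a8, S100a9 and Ngp) were lower with the shFabp7 partner. The epithelial markers summed to 4.53 to 6.03 CPM in shFabp7 libraries and 6.79 to 7.58 CPM in control libraries at 48 h. The NK cell markers summed to 144.9 to 148.4 CPM in shFabp7 libraries and 150.3 to 166.0 CPM in control libraries at 48 h. Most of this sum was Eomes, with 139.0, 141.9 and 137.8 CPM in shFabp7 and 158.8, 141.6 and 148.9 CPM in control libraries, which overlapped. Ncr1, Klrb1c, Klra8 and Klre1 had at most 0.88 CPM in any library. For fibroblast and stromal markers the sums were 4.30 to 4.47 CPM in shFabp7 libraries and 4.50 to 5.86 CPM in control libraries. The sums of B cell, monocyte and macrophage, dendritic cell, red cell and platelet markers overlapped between the partners at 48 h. Cdh1, Lyz2, Klrb1c and Itga2b of the other lists were also called lower. The part of these cells in the differences was not tested. Fold changes are given ± SE. Calls were by edgeR's quasi-likelihood test with Benjamini-Hochberg adjustment over all genes, and 10 of the 19 (Cd3g, Cd8a, Cd5, Thy1, Lcp2, Grap2, Rasgrp1, Ptpn22, Dgka and Dgkz) held whichever library was left out and under every other setting but the minimum fold. With upper-quartile scaling, or library totals alone, 3 were higher and 12 lower, where 12.5% of all genes were higher and 18.9% lower by upper quartile, and 12.7% higher and 18.7% lower by totals.

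At 24 h fewer of the genes differed between the partners. Cd5, Lcp2 and Fyn were higher with the shFabp7 partner, 3 of 35 (8.57%) against 6.22% of all genes, and Dgka, Plcg1, Rasgrp1 and Grap2 were lower, 4 of 35 (11.4%) against 4.65% of all genes. Of these 7, all but Fyn were also called at 48 h, in the same direction, in libraries of their own at each time. How many of all genes were called at both times was not computed. The median log2 fold change was 0.0033 over the 35 genes and -0.0041 over all genes. The groups did not overlap in 12 of the 35 (34.3%), against 27.5% of all genes. None passed the minimum fold of 1.2 (glmTreat, also 0 at an unadjusted p under 0.05), and 14 of all genes did. Only the call of Cd5 held whichever library was left out and under every setting but the minimum fold. The split of 3 higher and 4 lower depended on the scaling, and so did that of all genes. With RLE scaling 6 were higher and 1 lower, where 9.33% of all genes were higher and 3.65% lower. DESeq2 called 6 higher and 4 lower, against 10.9% and 4.02% of all genes, and the fit without the filter 6 and 1, against 5.27% and 2.34%. With library totals alone 1 was higher and 8 lower, against 3.56% and 7.16% of all genes, and by upper quartile 2 and 6, against 4.44% and 6.11%. It rested on single libraries at 24 h too, and so did that of all genes. Without replicate 1 of the shFabp7 partner 1 was higher and 0 lower, against 4.09% and 1.9% of all genes. Without replicate 1 of the control the counts were also 1 and 0, against 3.59% and 1.86%. Without replicate 3 of the shFabp7 partner 2 were higher and 2 lower, against 5.97% and 3.33%. Without replicate 2 of the control 5 were higher and 4 lower, against 9.68% and 4.79%. The interaction, which tests whether the partner effect at 48 h differs from that at 24 h, called 2 of the 35 genes, Thy1 higher (1 of 35, against 4.43% of all genes) and Dgkz lower (1 of 35, against 1.17% of all genes). Without replicate 1 of the control at 48 h it called 4, with Cblb and Nfatc2 added, 3 of 35 higher (8.57%), where 7.69% of all genes were higher, and 1 lower, where 2.01% were. Markers of other cells differed at 24 h too. The monocyte and macrophage markers summed to 11.4 to 12.9 CPM in shFabp7 and 13.8 to 15.5 CPM in control libraries at 24 h. The epithelial markers summed to 10.0 to 10.6 CPM in shFabp7 and 11.3 to 12.4 CPM in control libraries, and the platelet markers to 8.25 to 9.83 CPM in shFabp7 and 9.91 to 11.5 CPM in control libraries. Each of these sums was lower in every shFabp7 library than in every control library. The neutrophil sums overlapped, at 5.97 to 6.76 CPM in shFabp7 and 5.96 to 10.7 CPM in control libraries, and S100a9 was called lower. The part of these cells in the 24 h results was not tested.

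**Figure D1:**
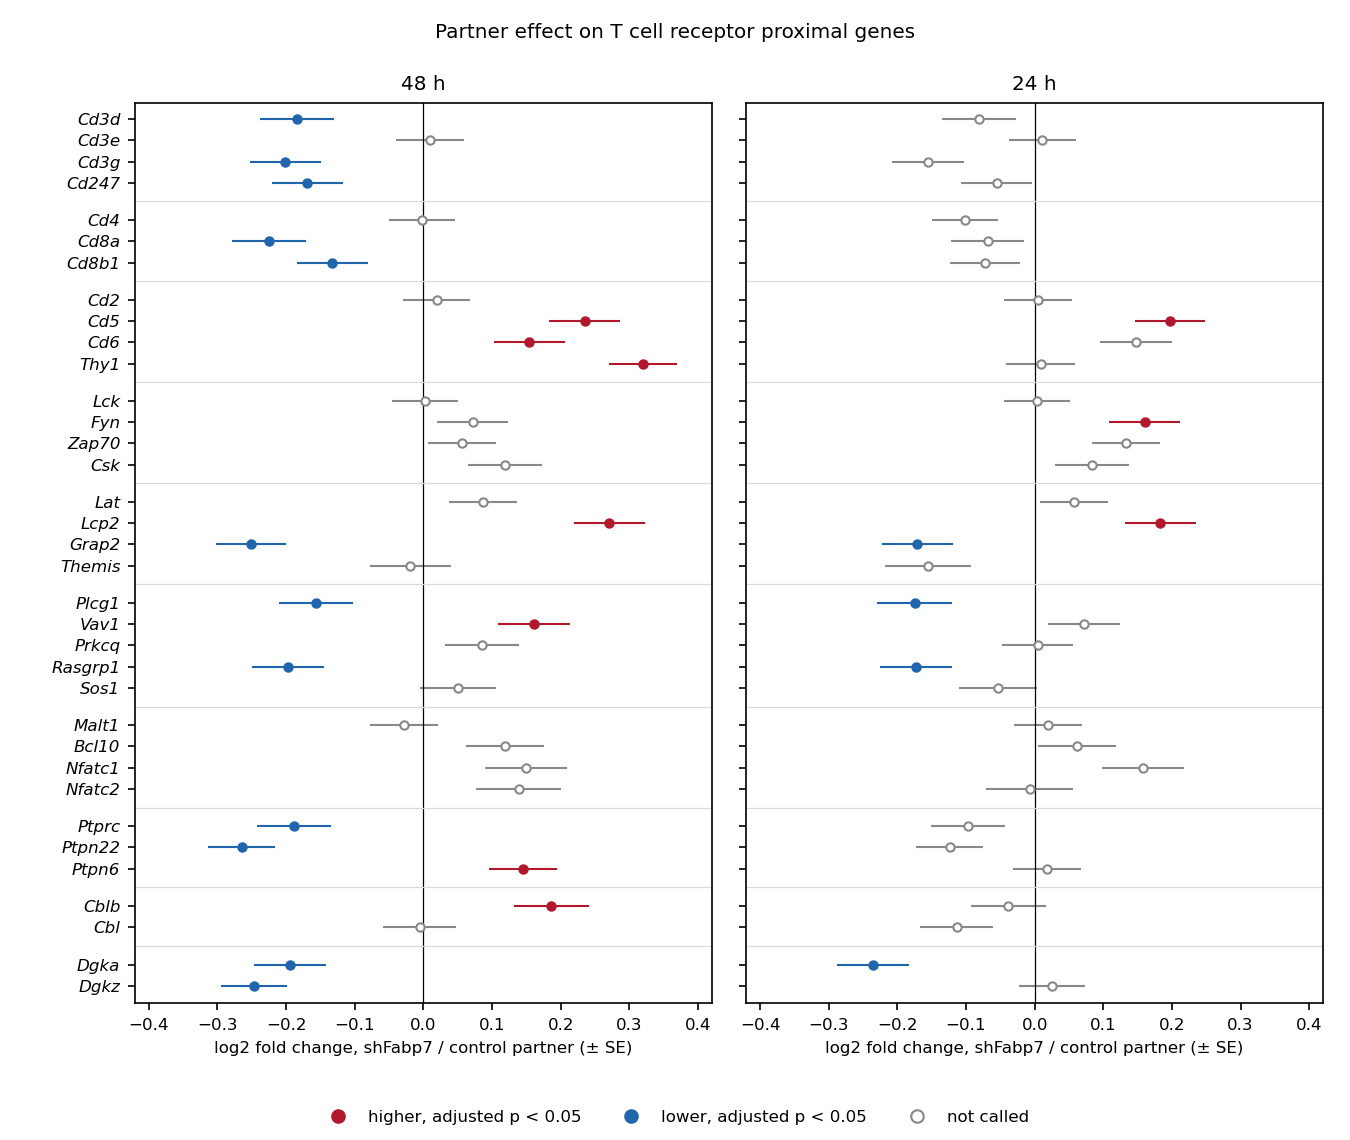
Log2 fold change (± SE) of the 35 genes with the shFabp7 partner against the control partner, at 48 h on the left and 24 h on the right, in blocks by role. Filled points passed an adjusted p of 0.05; the 7 higher and 12 lower genes at 48 h stay between -0.26 and 0.32.

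With time the genes moved further. In T cells with the shFabp7 partner, 8 of the 35 were higher at 48 h than at 24 h (22.9%), against 35.9% of all genes, and 20 were lower (57.1%), against 30.2% of all genes. In T cells with the control partner 9 were higher (25.7%), against 35.8% of all genes, and 21 were lower (60.0%), against 32.0% of all genes. The median log2 fold change of the 35 was -0.21 with the shFabp7 partner, where that of all genes was 0.061, and -0.19 with the control partner, where that of all genes was 0.044. Of the calls, 26 were shared by both partners with 1 direction and 1 (Dgkz) had opposite directions. The matching counts over all genes were not computed. A minimum fold of 1.2 was passed by 18 genes with the shFabp7 partner (51.4%), against 48.0% of all genes, and by 14 with the control partner (40.0%), against 50.1% of all genes. The times did not overlap in 29 of the 35 with the shFabp7 partner (82.9%), against 71.4% of all genes, and in 30 with the control partner (85.7%), against 68.6% of all genes. Scaling by library totals alone moved the median of all genes to 0.21 with the shFabp7 partner and 0.23 with the control partner, and the split became 11 higher and 15 lower with the shFabp7 partner and 12 and 12 with the control partner. Of all genes, 44.2% were then higher and 22.4% lower with the shFabp7 partner, and 45.7% higher and 22.3% lower with the control partner. Upper-quartile scaling moved the medians to 0.10 with the shFabp7 partner and 0.14 with the control partner, and gave 8 higher and 19 lower with the shFabp7 partner and 11 higher and 16 lower with the control partner, where 37.8% of all genes were higher and 28.1% lower with the shFabp7 partner, and 40.9% higher and 26.5% lower with the control partner. Because these are bulk samples, fewer cells of a type and less RNA per cell cannot be told apart. Markers of other cells moved with time as well, and how the T cells were separated is not given in the sources used here. The 8 dendritic cell markers summed to 34.3 to 36.5 CPM in the shFabp7 libraries at 48 h, against 11.3 to 12 CPM at 24 h, and 32.7 to 37.2 CPM with the control partner at 48 h, against 10.9 to 13.2 CPM at 24 h. Of the 4 tested, Batf3, Zbtb46 and Itgax were higher and Flt3 lower at 48 h with each partner, and Cd209a had 0 counts in every library. The rise of the sum came from Batf3, Zbtb46 and Itgax. Xcr1, Clec9a and Siglech averaged at most 0.12 CPM in every group and did not carry it. The 10 B cell markers summed to 24.1 to 25.9 CPM in the shFabp7 libraries at 48 h, against 15.4 to 18.8 CPM at 24 h, and to 24.3 to 28.6 CPM with the control partner at 48 h, against 17.7 to 20.5 CPM at 24 h. The platelet markers summed to 11.9 to 13.9 CPM in the shFabp7 libraries at 48 h, against 8.25 to 9.83 CPM at 24 h, and to 13.4 to 19.02 CPM with the control partner at 48 h, against 9.91 to 11.5 CPM at 24 h. The fibroblast and stromal markers summed to 4.30 to 4.47 CPM in the shFabp7 libraries at 48 h, against 1.54 to 1.86 CPM at 24 h, and to 4.50 to 5.86 CPM with the control partner at 48 h, against 1.72 to 2.21 CPM at 24 h. The epithelial sum went the other way. It was 4.53 to 6.03 CPM in the shFabp7 libraries at 48 h, against 10.0 to 10.6 CPM at 24 h. With the control partner it was 6.79 to 7.58 CPM at 48 h, against 11.3 to 12.4 CPM at 24 h. Most of that sum was Cdh1 and Epcam. Cdh1 averaged 1.24 CPM at 48 h and 4.90 CPM at 24 h with the shFabp7 partner. With the control partner Cdh1 averaged 2.06 and 6.35 CPM. Krt18 and Cldn4 averaged higher at 48 h with both partners. Over the tested genes of this list the median log2 fold change was -0.046 with the shFabp7 partner and 0.14 with the control partner. The part of these cells in the results was not tested.

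**Figure D2:**
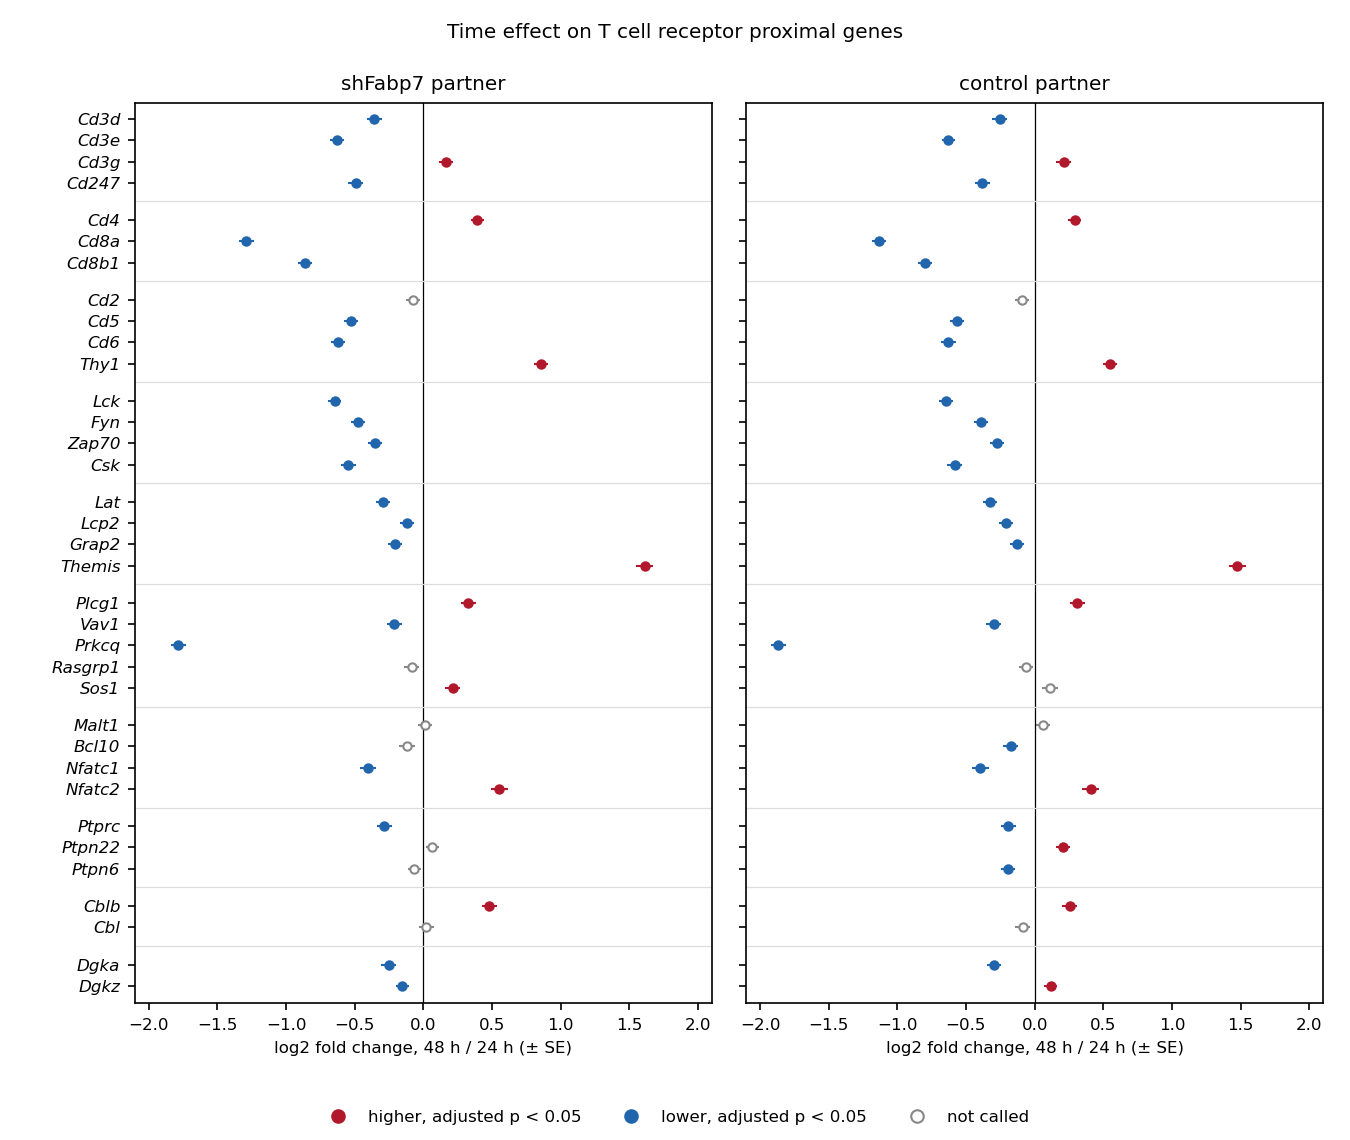
Log2 fold change (± SE) of the same genes at 48 h against 24 h, with the shFabp7 partner on the left and the control partner on the right. Prkcq, Cd8a and Cd8b1 lie far to the left and Themis far to the right in both panels.

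Among the receptor chains, which carry the signalling motifs of the complex, Cd3d, Cd3g and Cd247 were lower with the shFabp7 partner at 48 h, and Cd3e was not. Cd3d had 125, 134 and 123 CPM with the shFabp7 partner and 137, 152 and 145 CPM with the control partner at 48 h. The Cd3d log2 fold change at 48 h was -0.18 ± 0.05 (adjusted p = 0.0087). Cd3g had 119.9, 123 and 121 CPM with the shFabp7 partner and 131, 146 and 140.2 CPM with the control partner at 48 h. The Cd3g log2 fold change at 48 h was -0.20 ± 0.05 (adjusted p = 0.00281). Cd247, which encodes the zeta chain, had 223, 239 and 246 CPM with the shFabp7 partner and 257, 268 and 271 CPM with the control partner there. The Cd247 log2 fold change at 48 h was -0.17 ± 0.05 (adjusted p = 0.0112). In all 3 genes each shFabp7 library lay below each control library. Cd3e had 260.0, 265 and 272 CPM with the shFabp7 partner and 271, 268 and 254 CPM with the control partner at 48 h, which overlapped. The Cd3e log2 fold change at 48 h was 0.0096 ± 0.05 (adjusted p = 0.912). The Cd3d call was lost without replicate 3 of the shFabp7 partner (adjusted p = 0.0669) or replicate 2 of the control (adjusted p = 0.0734), and the Cd247 call without replicate 1 of the shFabp7 partner (adjusted p = 0.104).

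At 24 h none of the 4 chains passed the test, and the nearest was Cd3g, with 104, 110.2 and 110.2 CPM in the shFabp7 libraries and 124, 123 and 115 CPM in the control libraries (log2 fold change of -0.16 ± 0.05, adjusted p = 0.0506). Neither DESeq2 nor RLE scaling called it. Upper-quartile scaling did (adjusted p = 0.0222), as did library totals alone (adjusted p = 0.013), the stricter filter (adjusted p = 0.0328) and a fit of only the 24 h libraries (adjusted p = 0.0397). Cd3d had 157, 165 and 167 CPM with the shFabp7 partner and 173, 182 and 162 CPM with the control partner at 24 h. Cd247 had 329, 332 and 335 CPM with the shFabp7 partner and 362, 349 and 325 CPM with the control partner at that time. Cd3e had 412, 402 and 419 CPM with the shFabp7 partner and 403, 396 and 425 CPM with the control partner. The partner groups overlapped in these 3 genes. No chain passed the interaction test, which compares the partner effects at 48 h and 24 h (adjusted p = 0.431 to 0.995). With time the chains parted. Cd3e fell by 0.63 ± 0.05 on the log2 scale with either partner (adjusted p = 2.9e-13 with the shFabp7 partner and 2.7e-13 with the control partner), and Cd247 and Cd3d also fell, with log2 fold changes for Cd247 of -0.49 ± 0.05 with the shFabp7 partner and -0.38 ± 0.05 with the control partner, and for Cd3d of -0.36 ± 0.05 with the shFabp7 partner and -0.25 ± 0.05 with the control partner. Cd3g went the other way, by 0.17 ± 0.05 with the shFabp7 partner (adjusted p = 0.006) and 0.21 ± 0.05 with the control partner (adjusted p = 5.8e-04). Without replicate 1 of the shFabp7 partner at 24 h the first of these Cd3g calls was lost (adjusted p = 0.121), and with library totals alone the Cd3d decrease with the control partner was (adjusted p = 0.292). The summed level of the 4 chains was 750.3 ± 19.8 CPM in shFabp7 and 813 ± 19.4 CPM in control libraries at 48 h, and 1015 ± 15.3 CPM in shFabp7 and 1046 ± 18.4 CPM in control libraries at 24 h (SD over 3 libraries). Reads of Cd3e and Cd247 may include those of genes that overlap them on the other strand in the GRCm38 annotation, since the strand mode of counting is not given in the sources used here.

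**Figure D3:**
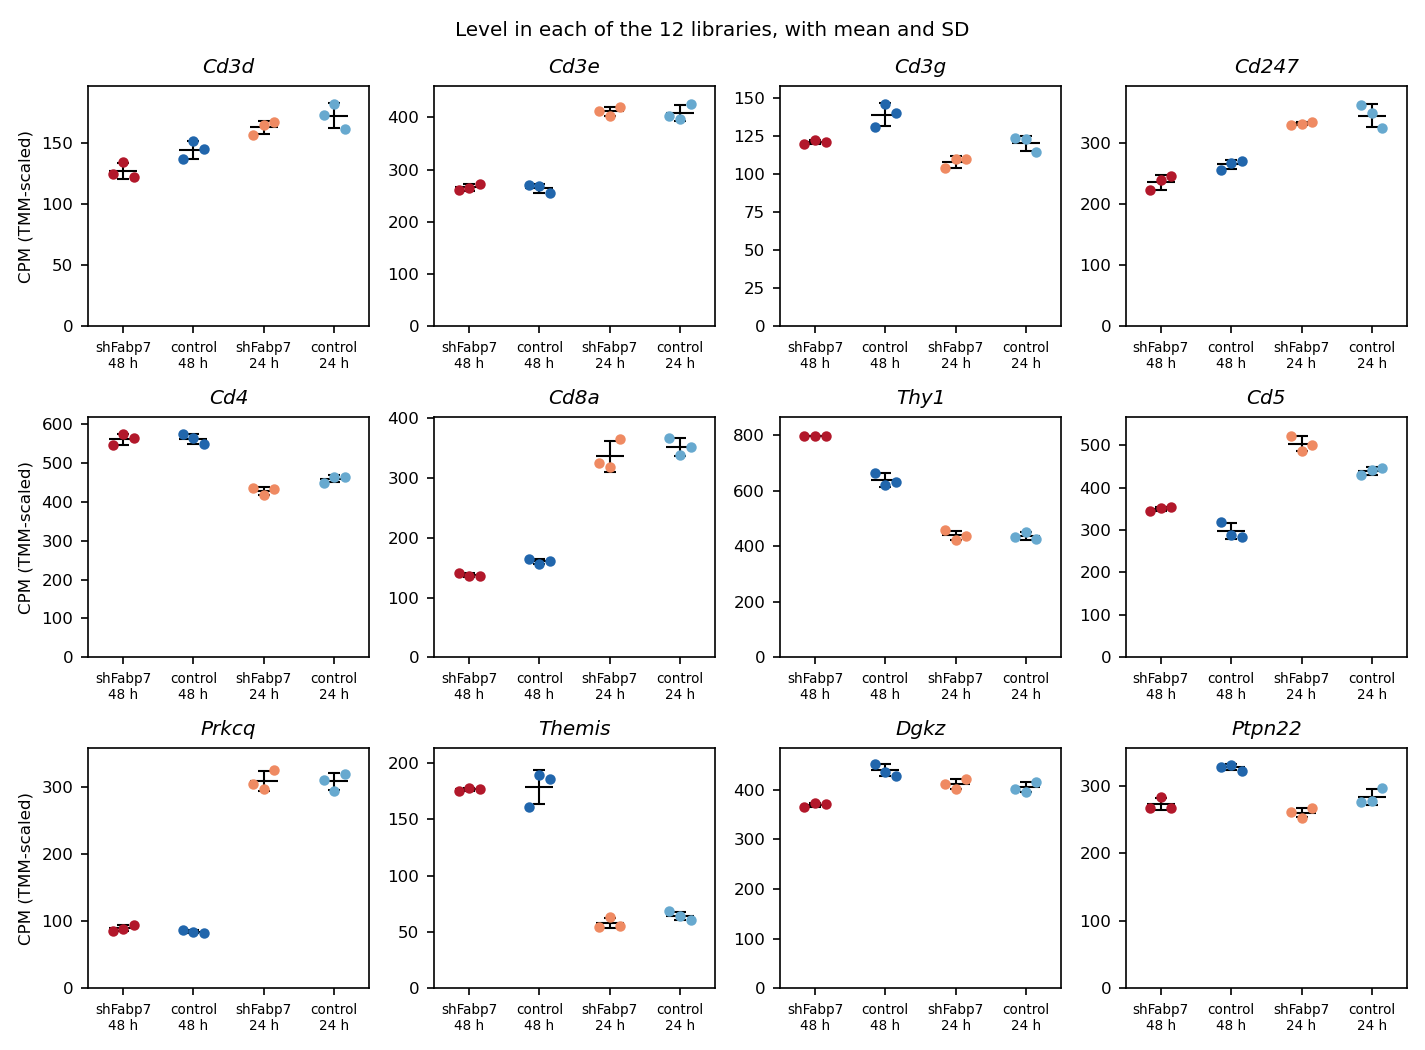
Level (CPM, TMM-scaled, axes from 0) of 12 of the genes in each library, with the mean and SD of the 3 libraries of a group as a cross bar and error bar. Cd3e, Prkcq and Cd8a are lower in the 48 h groups on the left of each panel than in the 24 h groups, and Thy1 and Themis are higher.

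The coreceptors, which bind MHC molecules and bring Lck to the receptor, showed their main differences with time, in opposite directions for CD8 and CD4. Cd8a, the CD8 alpha chain, had 142, 135 and 136 CPM in the shFabp7 libraries at 48 h, against 326, 318 and 366 CPM at 24 h. The Cd8a log2 fold change with time and the shFabp7 partner was -1.29 ± 0.05 (adjusted p = 2.1e-20). With the control partner Cd8a had 165, 157 and 161 CPM at 48 h, against 368, 338 and 352 CPM at 24 h. The Cd8a log2 fold change with time and the control partner was -1.13 ± 0.05 (adjusted p = 5.4e-19). No library at 48 h reached the level of any library at 24 h. Cd8b1, the beta chain, had 89.5, 93.5 and 92.0 CPM in the shFabp7 libraries at 48 h, against 165, 156 and 178 CPM at 24 h (log2 fold change of -0.86 ± 0.05, adjusted p = 3.3e-16). With the control partner it had 102, 100.0 and 99.3 CPM at 48 h, against 180.2, 174 and 170.4 CPM at 24 h (log2 fold change of -0.80 ± 0.05, adjusted p = 1.8e-15). The times were apart here too. Cd4 was higher at 48 h: 546, 573 and 565 CPM with the shFabp7 partner, against 435, 417 and 432 CPM at 24 h, and 574, 565 and 548 CPM with the control partner, against 449, 463 and 465 CPM at 24 h. Its log2 fold changes were 0.39 ± 0.05 with the shFabp7 partner (adjusted p = 1.1e-08) and 0.29 ± 0.05 with the control partner (adjusted p = 2.4e-06).

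Between partners at 48 h, Cd8a was lower in every shFabp7 library than in every control library (log2 fold change of -0.23 ± 0.05, adjusted p = 0.00143), and Cd4 did not pass. The Cd4 log2 fold change at 48 h was -0.0015 ± 0.05 (adjusted p = 0.986). Cd8b1 was just past the threshold (log2 fold change of -0.13 ± 0.05, adjusted p = 0.0496), and its call was lost without any 1 of the 6 libraries (adjusted p = 0.0708 to 0.166), with RLE scaling (adjusted p = 0.0795) and with DESeq2 (adjusted p = 0.0604). Of the counts of Cd4 and Cd8a together, Cd8a took 19.7 ± 0.791% with the shFabp7 partner and 22.3 ± 0.491% with the control partner at 48 h, and 44.0 ± 1.62% in shFabp7 and 43.5 ± 1.47% in control libraries at 24 h (SD over 3 libraries). Cd8a per Cd8b1 count was 1.5 ± 0.0703 with the shFabp7 partner and 1.60 ± 0.0306 with the control partner at 48 h, and 2.02 ± 0.0457 in shFabp7 and 2.02 ± 0.0680 in control libraries at 24 h. At 24 h none of the 3 coreceptors passed between the partners (adjusted p = 0.186 to 0.455). Library totals alone called Cd4 lower with the shFabp7 partner at 24 h (-0.14, adjusted p = 0.0396).

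Of the other surface proteins, Thy1 had the largest increase with the shFabp7 partner of the 35 genes. Thy1, which encodes the GPI-anchored T cell surface protein CD90, had 797, 797 and 798 CPM with the shFabp7 partner and 666, 620.3 and 630.4 CPM with the control partner at 48 h. The Thy1 log2 fold change at 48 h was 0.32 ± 0.05 (adjusted p = 5.7e-06). The shFabp7 libraries were nearly equal to each other and all above the control libraries. At 24 h the partners overlapped, with 458, 423 and 438 CPM in shFabp7 and 432, 452 and 427 CPM in control libraries. The Thy1 log2 fold change at 24 h was 0.0086 ± 0.05 (adjusted p = 0.943). The difference between these partner effects passed the interaction test (0.31 ± 0.07 on the log2 scale, adjusted p = 0.00729). It was lost without replicate 2 or 3 of the shFabp7 partner at 24 h (adjusted p = 0.115 and 0.0747) or replicate 2 of the control at 24 h (adjusted p = 0.0654). Thy1 was higher at 48 h than at 24 h with both partners, with log2 fold changes of 0.86 ± 0.05 with the shFabp7 partner (adjusted p = 1.4e-16) and 0.55 ± 0.05 with the control partner (adjusted p = 1.1e-11).

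Cd5, an inhibitory receptor whose level is known to follow the strength of receptor signalling in developing T cells, was higher with the shFabp7 partner at both times. It had 345, 351 and 354 CPM with the shFabp7 partner and 319, 289 and 284 CPM with the control partner at 48 h. The Cd5 log2 fold change at 48 h was 0.23 ± 0.05 (adjusted p = 5.3e-04). At 24 h the values were 522, 487 and 501 CPM with the shFabp7 partner and 429, 442 and 446 CPM with the control partner. The Cd5 log2 fold change at 24 h was 0.20 ± 0.05 (adjusted p = 0.0111). The groups did not overlap at either time. Cd6, a related scavenger-receptor protein, had 427, 445 and 458 CPM with the shFabp7 partner and 424, 389 and 381 CPM with the control partner at 48 h. The Cd6 log2 fold change at 48 h was 0.15 ± 0.05 (adjusted p = 0.0219). Leaving out replicate 2 or 3 in either group ended the call (adjusted p = 0.0704 to 0.113) as did upper-quartile scaling (adjusted p = 0.332) and library totals alone (adjusted p = 0.301). At 24 h Cd6 had 699.5, 658 and 688 CPM in shFabp7 and 592, 622 and 632 CPM in control libraries (log2 fold change of 0.15 ± 0.05, adjusted p = 0.0619), and DESeq2 called it (adjusted p = 0.00658). Over time both genes fell, Cd5 by 0.52 ± 0.05 with the shFabp7 partner and 0.56 ± 0.05 with the control partner, and Cd6 by 0.62 ± 0.05 with the shFabp7 partner and 0.63 ± 0.05 with the control partner, on the log2 scale (adjusted p of at most 6.3e-11). Cd2, an adhesion receptor for CD48, did not pass in any comparison with all libraries (adjusted p of 0.0999 or more). Several alternatives called it lower with time. With the shFabp7 partner these were RLE scaling (adjusted p = 0.0461), DESeq2 (adjusted p = 0.0209), the fit on those 2 groups alone (adjusted p = 0.0258) and the fit without replicate 1 of that partner at 24 h (adjusted p = 0.0359). For the control partner they were RLE scaling (adjusted p = 0.045), DESeq2 (adjusted p = 0.0204) and the fit without replicate 1 of that partner at 48 h (adjusted p = 0.0402). It lay at 256 ± 5.05 CPM with the shFabp7 partner and 253 ± 8.93 CPM with the control partner at 48 h, and 270.1 ± 10.5 CPM with the shFabp7 partner and 269 ± 4.74 CPM with the control partner at 24 h.

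None of the first kinases passed between the partners at 48 h, and all 4 fell with time. Lck, which starts the cascade, had 357, 358 and 366 CPM with the shFabp7 partner and 367, 363 and 349.6 CPM with the control partner at 48 h (log2 fold change of 0.0023 ± 0.05, adjusted p = 0.978). At 24 h Lck had 571, 542 and 579 CPM with the shFabp7 partner and 552, 567 and 569 CPM with the control partner. The Lck log2 fold change at 24 h was 0.0033 ± 0.05 (adjusted p = 0.979). The partner groups overlapped at both times, and each 48 h library lay below each 24 h library. The decrease with time was 0.65 ± 0.05 on the log2 scale with either partner (adjusted p = 1.0e-13 with the shFabp7 partner and 9.3e-14 with the control partner). Fyn, the second Src family kinase of T cells, had 397, 378 and 391 CPM with the shFabp7 partner and 325, 345 and 373 CPM with the control partner at 24 h (log2 fold change of 0.16 ± 0.05, adjusted p = 0.0397), where the groups did not overlap. This call was lost without replicate 1 or 3 of the shFabp7 partner or replicate 1 of the control (adjusted p = 0.0616 to 0.187), with upper-quartile scaling (adjusted p = 0.0907) and with library totals alone (adjusted p = 0.139). At 48 h Fyn had 275, 277 and 286 CPM with the shFabp7 partner and 272, 260.0 and 265 CPM with the control partner. The Fyn log2 fold change at 48 h was 0.072 ± 0.05 (adjusted p = 0.312). Zap70 and Csk, the kinase that restrains Lck and Fyn, passed between the partners at 48 h or 24 h in neither case (adjusted p = 0.0773 to 0.419), although Zap70 did not overlap at 24 h. It lay there at 466 ± 9.90 CPM with the shFabp7 partner and 425 ± 14.4 CPM with the control partner, and DESeq2 called it (adjusted p = 0.00539). Csk did pass at 48 h without replicate 1 of the control partner, whose 346 CPM stood above 303 and 301 CPM in the other 2 (adjusted p = 0.00233). With time Zap70 had log2 fold changes of -0.35 ± 0.05 with the shFabp7 partner and -0.28 ± 0.05 with the control partner, Fyn -0.48 ± 0.05 with the shFabp7 partner and -0.39 ± 0.05 with the control partner, and Csk -0.55 ± 0.05 with the shFabp7 partner and -0.58 ± 0.05 with the control partner (adjusted p of at most 9.3e-06). Library totals alone ended the Zap70 call with the control partner (adjusted p = 0.107).

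Among the adaptors, Lcp2 and Grap2, whose proteins bind each other as SLP-76 and GADS, differed between the partners in opposite directions. Lcp2 had 467, 485 and 472 CPM with the shFabp7 partner and 412, 395 and 373 CPM with the control partner at 48 h. The Lcp2 log2 fold change at 48 h was 0.27 ± 0.05 (adjusted p = 9.9e-05). Grap2 had 253, 258 and 263 CPM with the shFabp7 partner and 307, 301 and 313 CPM with the control partner at 48 h. The Grap2 log2 fold change at 48 h was -0.25 ± 0.05 (adjusted p = 2.4e-04). In neither gene did the groups overlap. At 24 h Lcp2 had 529, 509 and 511 CPM with the shFabp7 partner and 429, 462 and 473 CPM with the control partner. The Lcp2 log2 fold change at 24 h was 0.18 ± 0.05 (adjusted p = 0.0186). Grap2 had 299, 288 and 307 CPM with the shFabp7 partner and 358, 313 and 336 CPM with the control partner. The Grap2 log2 fold change at 24 h was -0.17 ± 0.05 (adjusted p = 0.0275). The groups were apart in both genes at 24 h as well. The 24 h call of Lcp2 was lost without replicate 1 of either group (adjusted p = 0.0585 and 0.0985) and with library totals alone (adjusted p = 0.0658). That of Grap2 was lost without any library but replicate 2 of the control (adjusted p = 0.0549 to 0.277), with RLE scaling (adjusted p = 0.0625) and without the filter (adjusted p = 0.0699). Lat, the membrane adaptor on which the complex forms, passed at neither time, with 347 ± 13.1 CPM with the shFabp7 partner and 326 ± 7.04 CPM with the control partner at 48 h (log2 fold change of 0.087 ± 0.05, adjusted p = 0.191). At 24 h it had 425 ± 8.75 CPM with the shFabp7 partner and 409 ± 15.8 CPM with the control partner. The Lat log2 fold change at 24 h was 0.057 ± 0.05 (adjusted p = 0.516).

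Themis, an adaptor best known for its part in the selection of thymocytes, had the largest increase with time of the 35 genes. It had 175, 177 and 177 CPM in the shFabp7 libraries at 48 h, against 54.7, 63.1 and 55.6 CPM at 24 h. The Themis log2 fold change with time and the shFabp7 partner was 1.61 ± 0.06 (adjusted p = 3.1e-21). With the control partner it had 161, 189 and 186 CPM at 48 h, against 68.3, 63.8 and 61.0 CPM at 24 h. The Themis log2 fold change with time and the control partner was 1.48 ± 0.06 (adjusted p = 2.3e-20). Every 48 h library lay above every 24 h library. Between partners it did not pass at 48 h or 24 h (adjusted p = 0.851 and 0.11). Library totals alone called Themis lower with the shFabp7 partner at 24 h (-0.20, adjusted p = 0.047). The other adaptors fell with time, Lat with log2 fold changes of -0.29 ± 0.05 with the shFabp7 partner and -0.32 ± 0.05 with the control partner, Lcp2 with -0.12 ± 0.05 with the shFabp7 partner and -0.21 ± 0.05 with the control partner, and Grap2 with -0.21 ± 0.05 with the shFabp7 partner and -0.13 ± 0.05 with the control partner. Of these, the Lcp2 and Grap2 values depended on the scaling. With library totals alone Lcp2 was at 0.027 with the shFabp7 partner (adjusted p = 0.653) and Grap2 at 0.061 with the control partner (adjusted p = 0.286), so that their signs turned. The Grap2 call with the shFabp7 partner was lost with library totals alone, at -0.060 (adjusted p = 0.302). That with the control partner was lost with upper-quartile scaling, at -0.027 (adjusted p = 0.661), with the stricter filter or none (adjusted p = 0.0785 and 0.0602) and in the fit on those 2 groups alone (adjusted p = 0.0786). The Lcp2 call with the control partner was lost (adjusted p = 0.732, and 0.0585 with upper-quartile scaling). Leaving out 1 library ended the Lcp2 call with the shFabp7 partner (adjusted p = 0.0504 to 0.109, replicates 1 and 3 at 48 h and 1 at 24 h) and the Grap2 call with the control partner (adjusted p = 0.0874 to 0.294, replicate 2 at 48 h and 1 and 3 at 24 h).

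Of the enzymes and exchange factors, Prkcq stood out with time. Prkcq, protein kinase C theta, which links diacylglycerol to NF-kB, had 85.6, 89.1 and 94.7 CPM in the shFabp7 libraries at 48 h, against 305, 298 and 326 CPM at 24 h. The Prkcq log2 fold change with time and the shFabp7 partner was -1.79 ± 0.05 (adjusted p = 1.4e-24). With the control partner the values were 87.1, 83.9 and 83.1 CPM at 48 h, against 311, 295 and 320.2 CPM at 24 h. The Prkcq log2 fold change with time and the control partner was -1.87 ± 0.05 (adjusted p = 5.0e-25). These were folds of 0.290 with the shFabp7 partner and 0.274 with the control partner, the largest changes of the 35 genes, and the partners overlapped at both times (adjusted p = 0.243 at 48 h and 0.973 at 24 h). Plcg1, the phospholipase that makes diacylglycerol and the calcium messenger, was lower with the shFabp7 partner, with 328, 333 and 341 CPM, against 398, 362 and 357 CPM with the control partner at 48 h. The Plcg1 log2 fold change at 48 h was -0.16 ± 0.05 (adjusted p = 0.0263). At 24 h it had 259, 260.3 and 279 CPM with the shFabp7 partner and 316, 277 and 308 CPM with the control partner. The Plcg1 log2 fold change at 24 h was -0.17 ± 0.05 (adjusted p = 0.0353). The 48 h libraries of the partners did not overlap, and those at 24 h overlapped, since a shFabp7 library at 279 CPM stood above a control library at 277 CPM. Both calls rested on single libraries. The first was lost without replicate 1 or 2 of the shFabp7 partner or replicate 1 of the control (adjusted p = 0.0798 to 0.112). The second was lost without replicates 1 or 2 of the shFabp7 partner or 1 or 3 of the control (adjusted p = 0.168 to 0.255) and with RLE scaling (adjusted p = 0.0743). Plcg1 rose with time, with log2 fold changes of 0.33 ± 0.05 with the shFabp7 partner and 0.31 ± 0.05 with the control partner (adjusted p = 3.2e-06 with the shFabp7 partner and 7.1e-06 with the control partner).

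Rasgrp1, the exchange factor through which diacylglycerol activates Ras, was lower with the shFabp7 partner at both times. It had 295, 291 and 303 CPM with the shFabp7 partner and 342, 348 and 330.3 CPM with the control partner at 48 h. The Rasgrp1 log2 fold change at 48 h was -0.20 ± 0.05 (adjusted p = 0.00398). At 24 h it had 305, 313 and 326 CPM with the shFabp7 partner and 369.7, 324 and 370.1 CPM with the control partner. The Rasgrp1 log2 fold change at 24 h was -0.17 ± 0.05 (adjusted p = 0.0303). The groups were apart at 48 h but overlapped at 24 h by 1 control library. The 24 h call was lost without any library but replicate 2 of the control (adjusted p = 0.0528 to 0.215), with RLE scaling (adjusted p = 0.0661) and without the filter (adjusted p = 0.0634). With time Rasgrp1 did not pass with either partner (adjusted p = 0.154 with the shFabp7 partner and 0.309 with the control partner). It was called lower with the shFabp7 partner by RLE scaling (adjusted p = 0.042), by DESeq2 (adjusted p = 0.0305), in the fit on those 2 groups alone (adjusted p = 0.0125) and without replicate 1 of that partner at 24 h (adjusted p = 0.0442). With library totals alone it was called higher with the control partner, at 0.13 (adjusted p = 0.0317), against -0.061 with TMM. Vav1, an exchange factor for Rac that joins the LAT complex, was higher with the shFabp7 partner at 48 h, at 172 ± 4.20 CPM, against 154 ± 10.3 CPM with the control partner. The Vav1 log2 fold change at 48 h was 0.16 ± 0.05 (adjusted p = 0.0176). That call was lost without replicate 3 of the shFabp7 partner or replicate 2 or 3 of the control (adjusted p = 0.0803 to 0.11), and with upper-quartile scaling or library totals alone (adjusted p = 0.296 and 0.267). Vav1 fell with time by 0.21 ± 0.05 with the shFabp7 partner and 0.30 ± 0.05 with the control partner on the log2 scale, and neither call held with library totals alone (adjusted p = 0.292 with the shFabp7 partner and 0.0562 with the control partner). Sos1, the other Ras exchange factor, had the lowest level of the 35 genes in every group, 56.6 CPM with the shFabp7 partner and 54.7 CPM with the control partner at 48 h. Its only call was with time and the shFabp7 partner. The Sos1 log2 fold change with time and the shFabp7 partner was 0.21 ± 0.06 (adjusted p = 0.00114). With the control partner it missed the threshold (log2 fold change of 0.11 ± 0.06, adjusted p = 0.077), which it passed without replicate 3 of that group at 48 h or at 24 h (adjusted p = 0.037 and 0.016) and with upper-quartile scaling (adjusted p = 0.00114).

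In the NF-kB and NFAT arms no gene passed between the partners at either time in the full set of libraries. Malt1, the protease, and Bcl10, the scaffold, which pass the signal on to NF-kB, stayed at adjusted p = 0.11 or more at both times. The NFAT genes hung on 1 library at 48 h. Nfatc2, a calcium-regulated factor present in resting T cells, had 154, 160.1 and 165 CPM with the shFabp7 partner and 166, 135 and 135 CPM with the control partner at 48 h (log2 fold change of 0.14 ± 0.06, adjusted p = 0.0902). Nfatc1, the related factor induced on activation, had 288, 298 and 293 CPM with the shFabp7 partner and 301, 244 and 248 CPM with the control partner. The Nfatc1 log2 fold change at 48 h was 0.15 ± 0.06 (adjusted p = 0.0561). In both, replicate 1 of the control lay above every shFabp7 library and the other 2 control libraries lay below them. Without that replicate both passed (adjusted p = 2.2e-04 for Nfatc2 and 9.4e-05 for Nfatc1), and DESeq2 called Nfatc1 with it (adjusted p = 0.0425). At 24 h Nfatc2 had 115, 106 and 106 CPM with the shFabp7 partner and 111, 105 and 112 CPM with the control partner, which overlapped (adjusted p = 0.964). Nfatc1 had 388 ± 13.3 CPM with the shFabp7 partner and 347 ± 15.9 CPM with the control partner at 24 h (log2 fold change of 0.16 ± 0.06, adjusted p = 0.0867), without overlap, and RLE scaling, DESeq2 and the fit without the filter called it (adjusted p = 0.04, 0.0286 and 0.0126). Over time these 2 parted, Nfatc2 with log2 fold changes of 0.55 ± 0.06 with the shFabp7 partner and 0.41 ± 0.06 with the control partner, and Nfatc1 with -0.40 ± 0.06 with the shFabp7 partner and -0.40 ± 0.06 with the control partner (adjusted p of at most 1.1e-06). The ratio of Nfatc1 to Nfatc2 in CPM was 1.84 ± 0.0517 with the shFabp7 partner and 1.82 ± 0.0175 with the control partner at 48 h, and 3.56 ± 0.0477 in shFabp7 and 3.18 ± 0.121 in control libraries at 24 h. Bcl10 fell with time in T cells with the control partner (log2 fold change of -0.18 ± 0.06, adjusted p = 0.00714), a call that ended with upper-quartile scaling (adjusted p = 0.247) and whose sign turned with library totals alone (0.015, adjusted p = 0.83). With the shFabp7 partner Bcl10 missed the threshold (adjusted p = 0.0672). There RLE scaling, DESeq2, no filter and the fit on those 2 groups alone called it lower (adjusted p = 0.0172 to 0.0345). So did the fits without replicate 3 of that partner at 48 h or replicate 2 at 24 h (adjusted p = 0.03 and 0.00747). The other alternatives did not. Malt1 did not pass with either partner (adjusted p = 0.845 with the shFabp7 partner and 0.29 with the control partner), and library totals alone called it higher with both (adjusted p = 0.00508 with the shFabp7 partner and 4.5e-05 with the control partner).

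All 3 phosphatases differed between the partners at 48 h. Ptpn22, which encodes a phosphatase that acts on Lck and ZAP-70, had 267, 283 and 267 CPM with the shFabp7 partner and 328, 331 and 322 CPM with the control partner at 48 h (log2 fold change of -0.26 ± 0.05, adjusted p = 6.9e-05), the largest decrease of the 35 genes in that comparison. All shFabp7 libraries were below all control libraries. At 24 h Ptpn22 had 261, 253 and 267 CPM with the shFabp7 partner and 276, 277 and 297 CPM with the control partner (log2 fold change of -0.12 ± 0.05, adjusted p = 0.101), with no overlap but no call, and scaling by upper quartile or library totals called it (adjusted p = 0.0462 and 0.0214). Ptprc encodes CD45, a phosphatase that sets the activity of Lck and Fyn. It had the highest CPM of the 35 genes in every group, with 1509 ± 64.4 CPM with the shFabp7 partner and 1719 ± 103 CPM with the control partner at 48 h. The Ptprc log2 fold change at 48 h was -0.19 ± 0.05 (adjusted p = 0.00716). Its call was lost without replicate 3 of the shFabp7 partner (adjusted p = 0.0728) or replicate 2 of the control (adjusted p = 0.0617). Ptpn6, which encodes the inhibitory phosphatase SHP-1, was higher with the shFabp7 partner, at 294 ± 4.36 CPM, against 266 ± 13.4 CPM with the control partner (log2 fold change of 0.15 ± 0.05, adjusted p = 0.0228). Its call ended without replicates 2 or 3 in each group (adjusted p = 0.0533 to 0.131), with upper-quartile scaling (adjusted p = 0.378), with library totals alone (adjusted p = 0.346) and without the filter (adjusted p = 0.0786). With time Ptprc fell by 0.28 ± 0.05 with the shFabp7 partner and 0.19 ± 0.05 with the control partner on the log2 scale. Ptpn6 did not pass with time and the shFabp7 partner (log2 fold change of -0.065 ± 0.05, adjusted p = 0.251) and was lower with the control partner (log2 fold change of -0.19 ± 0.05, adjusted p = 9.4e-04). DESeq2 and the fit on the shFabp7 libraries alone called Ptpn6 lower with the shFabp7 partner too (adjusted p = 0.0448 and 0.0414). Ptpn22 did not pass with the shFabp7 partner (log2 fold change of 0.066 ± 0.05, adjusted p = 0.243) and was higher at 48 h with the control partner (log2 fold change of 0.21 ± 0.05, adjusted p = 3.9e-04). Library totals alone called Ptpn22 higher with the shFabp7 partner as well (adjusted p = 2.3e-04). For Ptpn6 and Ptpn22 the difference between these time effects did not pass the interaction test (adjusted p = 0.336 and 0.264). Upper-quartile scaling ended the calls of Ptprc and Ptpn6 with the control partner (adjusted p = 0.133 and 0.097), as did library totals alone.

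Of the ubiquitin ligases, which mark receptor signalling proteins for removal, Cblb differed between the partners at 48 h and Cbl passed at neither time. Cblb had 556, 566 and 573 CPM with the shFabp7 partner and 532, 484 and 474 CPM with the control partner at 48 h (log2 fold change of 0.19 ± 0.05, adjusted p = 0.00802), with every shFabp7 library above every control library. The call was lost without replicate 3 of the control (adjusted p = 0.0541) and with upper-quartile scaling or library totals alone (adjusted p = 0.163 and 0.145). At 24 h the groups overlapped, with 424, 401 and 389 CPM in shFabp7 and 405, 396 and 446 CPM in control libraries. The Cblb log2 fold change at 24 h was -0.038 ± 0.05 (adjusted p = 0.724). The interaction missed the threshold (0.22 ± 0.08, adjusted p = 0.0822), but passed it without replicate 1 of the control at 48 h (adjusted p = 0.00654), as did that of Nfatc2 (adjusted p = 0.0137). With time Cblb rose with both partners, by 0.48 ± 0.05 with the shFabp7 partner (adjusted p = 1.9e-09) and 0.26 ± 0.05 with the control partner (adjusted p = 1.0e-04) on the log2 scale. Cbl had 209.9 ± 6.09 CPM with the shFabp7 partner and 211 ± 11.4 CPM with the control partner at 48 h, and 207 ± 10.2 CPM with the shFabp7 partner and 224 ± 11.2 CPM with the control partner at 24 h, and passed in no comparison (adjusted p of 0.145 or more). Library totals alone called it higher with time for the shFabp7 partner (adjusted p = 0.0054), and it was called lower with time for the control partner without replicate 1 of that group at 48 h (adjusted p = 0.0257).

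Both diacylglycerol kinases, which remove the diacylglycerol that activates RasGRP1 and protein kinase C theta, were lower with the shFabp7 partner at 48 h. Dgkz had 366, 374 and 371 CPM with the shFabp7 partner and 452, 436 and 429 CPM with the control partner at 48 h (log2 fold change of -0.25 ± 0.05, adjusted p = 1.3e-04). At 24 h Dgkz had 412, 402 and 421 CPM with the shFabp7 partner and 403, 396 and 416 CPM with the control partner. The Dgkz log2 fold change at 24 h was 0.025 ± 0.05 (adjusted p = 0.806). The groups were apart at 48 h and overlapped at 24 h. The difference between these effects passed the interaction test (-0.27 ± 0.07 on the log2 scale, adjusted p = 0.0141), and it held whichever library was left out. With time Dgkz was lower with the shFabp7 partner (log2 fold change of -0.15 ± 0.05, adjusted p = 0.00543) and higher with the control partner. The Dgkz log2 fold change with time and the control partner was 0.12 ± 0.05 (adjusted p = 0.0303). The second call was lost without replicate 1 or 2 of the control at 48 h (adjusted p = 0.0635 and 0.0586) with RLE scaling (adjusted p = 0.0858) and in the fit on those 2 groups alone (adjusted p = 0.102). The first was lost with library totals alone, at -0.0055 (adjusted p = 0.923). Dgka had 345, 351 and 362 CPM with the shFabp7 partner and 397, 405 and 408 CPM with the control partner at 48 h. The Dgka log2 fold change at 48 h was -0.19 ± 0.05 (adjusted p = 0.00422). At 24 h it had 397, 419.8 and 443 CPM with the shFabp7 partner and 527, 474 and 482 CPM with the control partner. The Dgka log2 fold change at 24 h was -0.24 ± 0.05 (adjusted p = 0.00346). No library of one partner reached the other at either time, and the 24 h call was lost without replicate 1 of the shFabp7 partner (adjusted p = 0.0669) or of the control (adjusted p = 0.0635). With time Dgka fell by 0.25 ± 0.05 with the shFabp7 partner and 0.29 ± 0.05 with the control partner on the log2 scale, and library totals alone ended these calls (adjusted p = 0.0752 with the shFabp7 partner and 0.0729 with the control partner). Exons of Dgka and Dgkz overlap genes on the other strand in the GRCm38 annotation.

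Levels can be compared between genes only per length, so CPM were divided by the exonic length in the GRCm38 annotation, in kilobases. At 48 h with the shFabp7 partner the highest levels were those of Thy1 (425 CPM per kb), Ptprc (295) and Lat (278), and the lowest those of Cbl (18.5) and Sos1 (6.71). With the control partner at 48 h Thy1 (340.2 ± 12.7) and Ptprc (336 ± 20.2 CPM per kb, SD over 3 libraries) did not differ beyond their spread. At 24 h Ptprc was highest, at 359 CPM per kb with the shFabp7 partner and 384 with the control partner. Among the receptor chains Cd3e was highest in all 4 groups, at 182 CPM per kb with the shFabp7 partner and 181 with the control partner at 48 h, and 281 with the shFabp7 partner and 279 with the control partner at 24 h. With the shFabp7 partner at 48 h Cd3g lay at 118 CPM per kb, Cd3d at 78.7 and Cd247 at 51.8, and with the control partner at 48 h at 136 for Cd3g, 89.4 for Cd3d and 58.2 for Cd247. At 24 h with the shFabp7 partner Cd3g (106) and Cd3d (101) were closer to each other, with Cd247 at 72.9. Cd4 and Cd8a lay further apart at 48 h, at 181 and 43.9 CPM per kb with the shFabp7 partner, than at 24 h, at 138 and 107 CPM per kb with that partner. Replicate spread was small: the median coefficient of variation over the 35 genes was 2.12% with the shFabp7 partner and 4.24% with the control partner at 48 h, and 3.42% in shFabp7 and 4.11% in control libraries at 24 h, with the highest, 12.5%, for Nfatc2 with the control partner at 48 h. Together the 35 genes took 1.16 ± 0.00165% of counts with the shFabp7 partner and 1.24 ± 0.0128% with the control partner at 48 h, and 1.2 ± 0.0198% in shFabp7 and 1.24 ± 0.0188% in control libraries at 24 h (SD over 3 libraries). On the TMM scale the difference between partners was within the spread: the 35 summed to 11297 ± 72.2 CPM with the shFabp7 partner and 11329 ± 196 CPM with the control partner at 48 h, and 12874 ± 265 CPM in shFabp7 and 12945 ± 119 CPM in control libraries at 24 h. In the GRCm38 annotation 10 of the 35 genes share exonic sequence with another gene, 8 of them with one on the opposite strand, so their counts may hold reads of that gene.

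**Figure D4:**
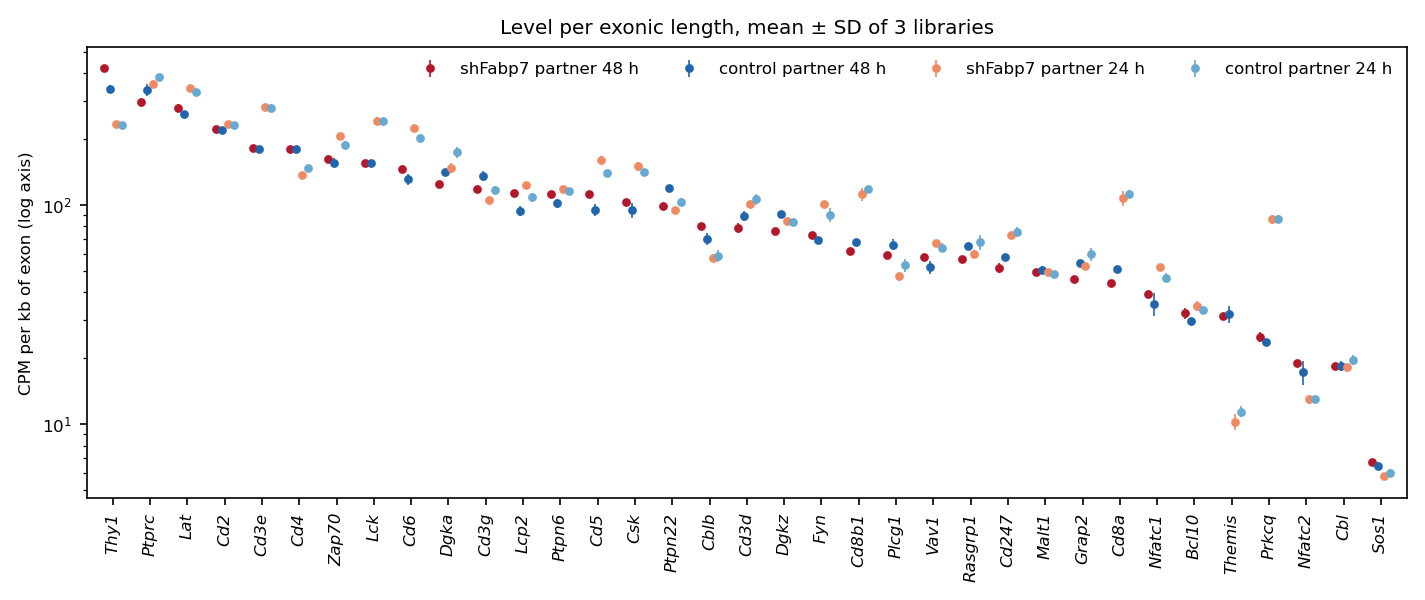
Level per kb of exon (CPM per kb, log axis, mean ± SD of 3 libraries) of the 35 genes, ordered by their level with the shFabp7 partner at 48 h. Prkcq and Cd8a lie well below their 24 h points at 48 h, and Themis well above.

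Beyond the 35 genes, 86 others of the receptor pathway were read from the same test, all of which passed the filter. With the shFabp7 partner at 48 h 21 were higher (24.4%), against 19.9% of all genes, and 18 lower (20.9%), against 11.6% of all genes. This split depended on the scaling. By upper quartile 8 were higher and 30 lower, against 12.5% and 18.9% of all genes. Library totals alone also gave 8 and 30, against 12.7% and 18.7%. RLE scaling gave 22 and 15, against 21% and 10.8%. At 24 h 3 were higher (3.49%), against 6.22% of all genes, and 11 lower (12.8%), against 4.65% of all genes. By upper quartile 0 were higher and 12 lower at 24 h, against 4.44% and 6.11% of all genes. Library totals alone gave 0 and 14, against 3.56% and 7.16%, and RLE scaling 4 and 5, against 9.33% and 3.65%. Without replicate 1 of the shFabp7 partner 0 were higher and 2 lower, against 4.09% and 1.9%. Without replicate 1 of the control the counts were also 0 and 2, against 3.59% and 1.86%. At 48 h the largest decreases were those of Txk, a Tec family kinase (75.7 CPM with the shFabp7 partner and 113 CPM with the control partner, log2 fold change of -0.58 ± 0.08, adjusted p = 2.2e-06), the scaffold adaptor gene Gab3 (-0.47 ± 0.12) and Sit1, a transmembrane adaptor (-0.40 ± 0.09). The largest increases were those of the kinase gene Akt1 (217 CPM with the shFabp7 partner and 163 CPM with the control partner, log2 fold change of 0.41 ± 0.05, adjusted p = 1.5e-07), and of Wipf1 (0.40 ± 0.05) and Was (0.35 ± 0.05), whose proteins form the WIP and WASP complex that builds actin. At 24 h Rasa3, which switches off Ras and Rap1, had the largest called decrease (198 CPM with the shFabp7 partner and 255 CPM with the control partner, log2 fold change of -0.36 ± 0.05, adjusted p = 6.0e-05), and it held whichever library was left out. Trat1, a receptor-associated adaptor (-0.28 ± 0.08), Txk (-0.27 ± 0.08), the calcium channel gene Orai1 (0.21 ± 0.07), the MAP kinase kinase gene Map2k2 (0.18 ± 0.06) and Akt1 (0.17 ± 0.05) also passed at 24 h (adjusted p = 0.0239 to 0.0462). Each of these lost its call without replicate 1 of either group at 24 h (adjusted p = 0.0686 to 0.261).

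With time 39 of the 86 were higher (45.3%) and 29 lower (33.7%) with the shFabp7 partner, where 35.9% of all genes were higher and 30.2% lower. For the control partner 40 were higher (46.5%) and 30 lower (34.9%), where 35.8% of all genes were higher and 32.0% lower. Gab2, a scaffold adaptor, rose most but was low, at 6.08 CPM in the shFabp7 libraries at 48 h, against 1.23 CPM at 24 h (log2 fold change of 2.29 ± 0.18, adjusted p = 4.2e-13), and 5.80 CPM with the control partner at 48 h, against 1.60 CPM at 24 h. The Gab2 log2 fold change with time and the control partner was 1.85 ± 0.17 (adjusted p = 1.8e-11). Nedd4, a ubiquitin ligase gene, rose by 1.93 ± 0.07 with the shFabp7 partner and 1.68 ± 0.07 with the control partner, and Vav2, a relative of Vav1, by 1.22 ± 0.06 with the shFabp7 partner and 1.27 ± 0.06 with the control partner, on the log2 scale. Sla, whose protein SLAP promotes the breakdown of the receptor complex in thymocytes, had the largest called decreases, -1.07 ± 0.05 with the shFabp7 partner and -1.02 ± 0.05 with the control partner. Next were Grap, a GRB2-like adaptor, at -0.75 ± 0.05 with the shFabp7 partner, and Was at -0.70 ± 0.05 with the control partner. Orai1 came after these, at -0.68 ± 0.07 with the shFabp7 partner and -0.69 ± 0.07 with the control partner. The interaction test called 9 of the 86 (10.5%), all higher, against 4.43% of all genes, led by Trat1, Wipf1 and Itpr1. By upper quartile it called 2 higher and 1 lower, against 2.01% and 2.1% of all genes. Library totals alone gave 4 and 1, against 2.63% and 1.62%, and no filter 3 and 1, against 1.66% and 1.17%. DESeq2 called 10 and 2, against 4.87% and 1.78%. Without replicate 2 of the shFabp7 partner at 24 h 1 was called, higher, against 1.05% of all genes. Without replicate 1 of the control at 48 h 13 were higher and 2 lower, against 7.69% and 2.01%.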

How the data were processed

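RNA-seq libraries of mouse spleen T cells after co-culture were analysed, 3 in each of 4 groups. The deposited values are raw counts of reads per gene, 1 table of whole numbers for 12 libraries, which the authors made with CASAVA 1.8.2, TopHat2 2.0.13 and HTSeq 0.6.1p1 on build GRCm39, per the submitters' processing notes; the role of each tool, the annotation and the strand mode are not given in the sources used here. Without the strand mode, overlapping genes on opposite strands may share reads.

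Genes were kept by edgeR's filterByExpr (minimum count 10, minimum total 15), which left 16945 of 53762. Counts were scaled by TMM and fitted by edgeR 4.0.16 (R 4.3.3) with robust quasi-likelihood dispersion over all 12 libraries, with 1 term per group. The 5 comparisons were the partner at each time, time with each partner, and their interaction. P-values were adjusted by Benjamini-Hochberg over all genes tested, with calls at 0.05. Scripts were tested on simulated data. CPM given in the text are counts relative to the TMM-scaled library size, and CPM per kb divide by the merged exonic length in the GRCm38 annotation, a build other than that of the counts. Promoter sequences are credited to RefSeq, build GRCm38.p6.

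Alternatives were RLE, upper-quartile or no scaling factors (library totals alone), DESeq2 1.42.0, no filter, a fit restricted to the 2 groups compared, a stricter filter (1 CPM in 3 libraries and a total of 100), a replicate block, edgeR's glmTreat with a minimum fold of 1.2, and each library left out in turn. The 35 genes, the pathway list and the marker lists were chosen with earlier results of these data known. Genes told library by library were the receptor chains, the coreceptors, the called genes with the largest changes (up to 4 per direction between partners, up to 5 with time) and those called for the interaction. Other pathway genes were named where they were among the 3 largest called changes per direction, at 1 CPM or more.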

Additional observations from a re-analysis of the deposited data

Results flagged for a closer look

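Of the 35 genes, the partner effect differed between the times in Thy1 and Dgkz, by edgeR's interaction test over all genes. For Thy1 the partner effect at 48 h minus that at 24 h was 0.31 on the log2 scale (SE 0.07, adjusted p = 0.00729), from 0.32 at 48 h and 0.0086 at 24 h, and leaving out 1 of 3 libraries at 24 h ended that call (adjusted p = 0.0654 to 0.115). For Dgkz the difference was -0.27 (SE 0.07, adjusted p = 0.0141), from -0.25 at 48 h and 0.025 at 24 h. The interaction is equally the difference between the 2 time effects, so those are no separate observation. Dgkz was the 1 gene of the 35 whose calls with time had opposite directions with the shFabp7 partner and the control partner. Each of those calls depended on the processing. The decrease with the shFabp7 partner came to -0.0055 with library totals alone (adjusted p = 0.923). The increase with the control partner was lost with RLE scaling (adjusted p = 0.0858), in the fit on those 2 groups alone (adjusted p = 0.102) and without replicate 1 or 2 of the control at 48 h (adjusted p = 0.0635 and 0.0586).

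Among the other pathway genes, Trat1 had a difference of 0.44 (adjusted p = 0.0159), at 54.5 CPM with the shFabp7 partner and 48.8 CPM with the control partner at 48 h, and 27.4 CPM with the shFabp7 partner and 33.3 CPM with the control partner at 24 h. That call was lost without replicate 2 of the shFabp7 partner at 48 h, replicates 1 or 2 of the shFabp7 partner at 24 h or replicates 1 or 2 of the control at 24 h (adjusted p = 0.0508 to 0.101) and with upper-quartile scaling (adjusted p = 0.0512). Wipf1 had a difference of 0.36 (adjusted p = 0.00245), which held whichever library was left out, at 614 CPM with the shFabp7 partner and 465 CPM with the control partner at 48 h, and 426 CPM with the shFabp7 partner and 415 CPM with the control partner at 24 h. Itpr1, an inositol trisphosphate receptor gene, had a difference of 0.32 (adjusted p = 0.0079), at 193 CPM with the shFabp7 partner and 160.3 CPM with the control partner at 48 h, and lost it without replicates 2 or 3 of the shFabp7 partner or 3 of the control at 24 h (adjusted p = 0.0633 to 0.0969). The causes of these differences were not tested.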

How the results depend on the processing

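Each of the 35 genes was recomputed in 5 comparisons under every alternative, which gave 2800 values: 2577 kept their side of the threshold, 159 lost a call and 60 gained one. Of values that passed neither as reported nor under the alternative, 171 changed sign. The other 4 turned round, all with library totals alone at 48 h against 24 h: with the shFabp7 partner Lcp2 came to 0.027 (adjusted p = 0.653), and with the control partner Grap2 came to 0.061 (adjusted p = 0.286), Bcl10 to 0.015 (adjusted p = 0.83) and Rasgrp1 to 0.13 (adjusted p = 0.0317). That scaling moved the median of all genes to 0.21 with the shFabp7 partner and 0.23 with the control partner; the cause was not tested.

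A minimum fold of 1.2 (edgeR's glmTreat) left 0 of the 35 genes between partners at 48 h, 0 at 24 h and 0 in the interaction. At an unadjusted p under 0.05 it left 1, 0 and 0. Of all genes, 5.93% were called with that minimum fold at 48 h, 0.0826% at 24 h and 0.0767% in the interaction. With time it left 18 of the 35 for the shFabp7 partner and 14 for the control partner, against 48.0% and 50.1% of all genes. With no minimum fold DESeq2 called 19 of the 35 at 48 h, 10 at 24 h and 2 in the interaction. Of all genes it called 21.1% higher and 10.4% lower at 48 h, 10.9% and 4.02% at 24 h, and 4.87% and 1.78% in the interaction. Leaving out 1 library gave 1 to 9 calls at 24 h, 13 to 20 at 48 h and 1 to 4 in the interaction. With time it gave 27 to 29 for the shFabp7 partner and 28 to 31 for the control partner. Of all genes, 3.59% to 9.68% were then higher and 1.86% to 4.79% lower at 24 h. At 48 h 16.4% to 20% were higher and 8.26% to 11.4% lower. In the interaction these ranges were 1.05% to 7.69% and 0.536% to 2.01%. With time they were 32.1% to 33.9% and 27.9% to 29.7% for the shFabp7 partner. For the control partner they were 33% to 34.6% and 28.6% to 30.7%. Calls held whichever library was left out, and under every alternative but the minimum fold, for 1 gene at 24 h (Cd5), 10 at 48 h, 1 in the interaction (Dgkz), 22 with time for the shFabp7 partner and 20 for the control partner. The 27 results named for other pathway genes gave 420 values, of which 46 lost their call.

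Replicate numbers did not pair the libraries: deviations of same-numbered libraries correlated at -0.067 to 0.010. With the replicate number as a block, 7 of the 35 genes were called between partners at 24 h, 19 at 48 h and 2 in the interaction. With time 28 were called for the shFabp7 partner and 30 for the control partner. Of all genes, 6% were then higher and 4.49% lower at 24 h, 19.5% and 11.1% at 48 h, and 3.96% and 1.13% in the interaction. With time these shares were 35.7% and 30% for the shFabp7 partner and 35.5% and 31.7% for the control partner. At 48 h the block lost Cd8b1 (adjusted p = 0.064) and gained Nfatc1 (adjusted p = 0.0498). With the shFabp7 partner across time each library correlated best with its own number, a hint from the data alone (r of at most 0.010). All 35 genes passed the filter in these libraries, and the lowest, Sos1, averaged over 48 CPM in every group.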
